A study of Mus musculus with 83 samples.

Results

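The genes described here are nuclear-encoded genes of the 5 complexes of oxidative phosphorylation. They were measured in single mouse ovarian follicles that had been kept fresh or vitrified and then matured in culture. They were chosen by symbol: names beginning Nduf with a, b, c, s or v and a digit (complex I), Sdha to Sdhd (complex II), Uqcr (complex III), Cox4 to Cox8 followed by a, b, c or a digit (complex IV) and Atp5 (complex V), without the pseudogenes marked -ps and the Ndufaf assembly factors. The rule took 80 of the 21572 rows of the count table, of which 40 belong to complex I, 4 to complex II, 8 to complex III, 11 to complex IV and 17 to complex V. The rule does not reach every nuclear-encoded subunit, so sums and counts of a complex cover its members and not the whole complex. Cox4i1, Cox4i2 and Ndufab1 are subunits that the rule does not reach and are given separately. It places Ndufa4 in complex I by its name, although its protein is now known as a subunit of complex IV. Ndufa4l2, a relative of Ndufa4, is also placed there by its name alone. Ndufa11b, Ndufb4c and Ndufs6b also match the rule and are counted in complex I, although they have no annotated coding transcript.

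The 83 libraries each hold the RNA of 1 follicle from CD-1 wild-type mice. Follicles were embedded in 0.5% alginate and grown for 8 days, and those of 300 to 350 µm in diameter were moved to a medium for maturation. It held hCG (human chorionic gonadotropin, the stand-in for the ovulatory hormone surge) at 1.5 IU/ml, 10 ng/ml epidermal growth factor, 10 mIU/ml recombinant follicle-stimulating hormone and 10% serum. They were collected at 0, 1, 4 or 8 h of maturation. The fresh groups held 18, 6, 7 and 4 libraries in the order of time, and the vitrified groups held 15, 14, 7 and 12; vitrification is freezing to a glass without ice crystals. The library names show 3 plates: one with all libraries of 0 h and no others, one shared by fresh and vitrified follicles from 1 h on, and one with vitrified follicles only, which held 9 of the vitrified 1 h and 9 of the vitrified 8 h libraries. Within the names of the shared plate the library number starts again: rows A, C, D and E (fresh 4 h, fresh 1 h, vitrified 4 h and vitrified 8 h) form one number series, and rows B and F (fresh 8 h and vitrified 1 h) form another. The labels do not say what a series is. Comparisons of fresh 8 h or vitrified 1 h with groups of the first series cross from one to the other, and there the series and the group cannot be told apart. The steps from 1 h to 4 h in fresh and from 4 h to 8 h in vitrified follicles, and vitrified against fresh at 4 h, lie within one series. The labels name neither animals nor culture runs, so the p-values measure the spread between follicles, part of which may be technical.

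Oxidative phosphorylation takes place in the inner mitochondrial membrane. Complexes I and II pass electrons from NADH and succinate to coenzyme Q, complex III hands them to cytochrome c, complex IV transfers them to oxygen, and complex V uses the resulting proton gradient to make ATP. Complex II is also an enzyme of the citric acid cycle and is the one complex with all its subunits encoded in the nucleus. In the follicle the granulosa cells surround the oocyte and supply it with pyruvate, which its mitochondria oxidise, and the steroid-producing cells begin their own steroid synthesis in mitochondria.

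Total estimated counts per library ran from 682200 to 6504588, with a median of 2765962. None of the 26 listed symbols of mitochondrially encoded genes, which give each gene in alternative spellings, is in the count table. The subunits encoded in mitochondrial DNA were therefore not analysed here. After a filter on low counts, 11889 genes were tested and 76 of the 80 members were among them. Atp5k, Cox6b2, Ndufa11b and Ndufs6b had at most 12 counts in any library and were not tested. The summed level of 10 granulosa markers was 48558 to 65627 CPM (counts scaled to the library total) in fresh follicles at 1 h, 44985 to 56453 at 4 h and 13702 to 20121 at 8 h, and that of 11 oocyte markers stayed at or below 156 CPM in every fresh library. In vitrified follicles the sum of the oocyte markers reached 288 CPM at 0 h, and 301 at 8 h on the vitrified-only plate. Erythroid markers were at or near 0. The trimmed-mean (TMM) factors, which correct the totals for a few very abundant genes, ran from 0.62 to 0.98 at 1 h and 4 h and from 0.98 to 1.46 at 0 h and 8 h. The part of these shifts in the results below was not tested, and in whole follicles fewer cells of a type and less RNA per cell cannot be told apart.

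Some libraries stood apart. Vitrified 4 h replicates 1 and 2 had a chi-square per degree of freedom of 1.967 between their counts, against 4.009 for the closest pair in any other group, so results with that group were also computed without replicate 2. Among the 3 vitrified 8 h libraries of the shared plate, replicate 3 was the highest in 68 of the 76 members tested and replicates 1 and 2 in 4 each. Results that rest on those 3 libraries are given with and without replicate 3; without it, 12332 genes passed the filter on low counts in place of 11889.

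Levels between genes were compared per transcript length, in the authors' TPM (a share of all transcripts, adjusted for length), as means over all 83 libraries. The members summed to 4146 TPM, of which complex V made up 68.9%, complex IV 11.2%, complex I 11%, complex III 7.84% and complex II 0.999%. Cox4i1 at 245 TPM and Cox4i2 at 11, which the rule does not reach, would take complex IV from 465 to 721 TPM, which is 16.4% of the total with them. In complex V, Atp5b (the catalytic beta subunit) stood at 1148 TPM and Atp5g3 (one of 3 genes for the same membrane ring subunit) at 963. The leading members of complex IV were Cox6a1 at 115 TPM and Cox8a at 112, and those of complex III were Uqcrq at 102 and Uqcrfs1, the Rieske iron-sulfur protein, at 82.8. Complex I was led by Ndufb9 at 40.8 TPM and Ndufs8 at 40. In complex II, Sdhd had 18.2 TPM, Sdha 11.7 and Sdhc 2.62. The deposited levels thus ran from 1148 TPM down to 0.445 for Cox6b2. The deposited TPM and counts do not rank the members alike. TPM times transcript length in kb, over the CPM of the same gene, had a median of 0.428 over the 77 members with a transcript length, and ran from 0.0122 to 2.54. The lowest ratio was that of Atp5o, listed at 1.25 TPM beside 85.6 CPM, so its TPM is not read as its level here. Near-identical copies elsewhere in the genome (90% identity over 90% of the coding sequence) exist for 31 members. Reads can be split between such copies, so single levels of these members are uncertain. The median was 13.5 TPM for members with a copy and 14.6 TPM for those without. Ndufa11b, Ndufb4c and Ndufs6b have no annotated coding transcript, so they were not searched and are counted as without a copy. They are themselves the near-identical copies found for Ndufa11, Ndufb4 and Ndufs6. Atp5o overlaps 3 other gene entries over 47.9% of its exonic bases, one of them a second gene of the same symbol on the same strand.

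**Figure D1:**
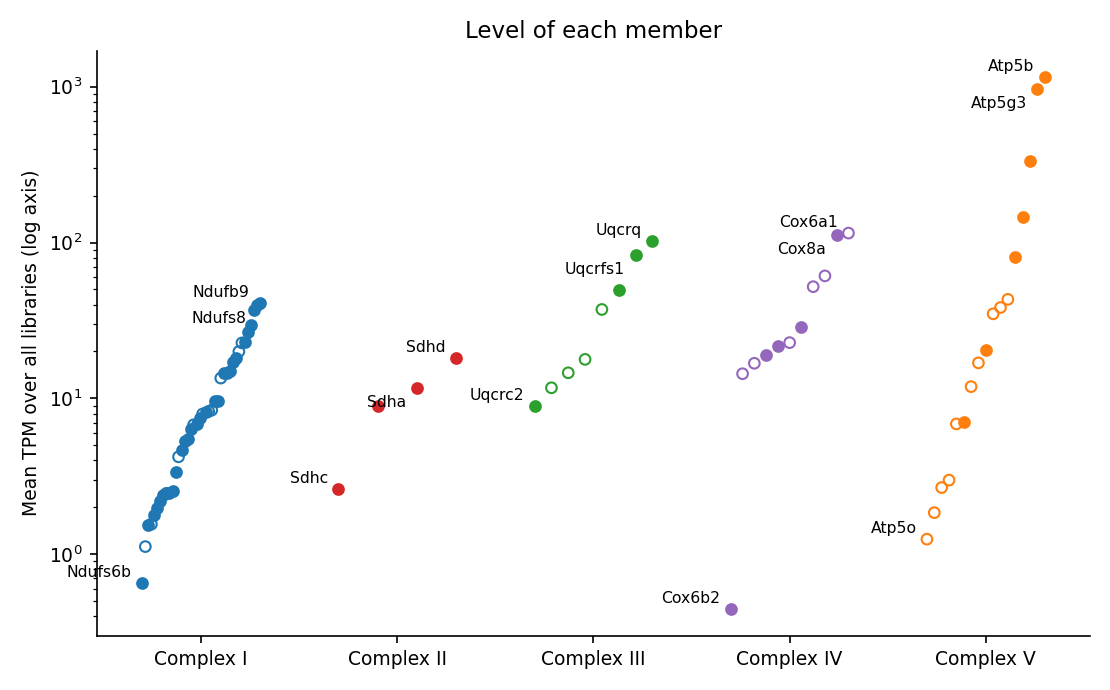
Mean TPM (log axis) of each member over all 83 libraries, grouped by complex, with open points for members that have a near-identical copy in the genome. Atp5b at 1148 TPM and Atp5g3 at 963 lie far above the median of 13.9 over the 80 members; the TPM of Atp5o, 1.25, does not match its counts.

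Fresh and vitrified follicles were compared at each time among libraries with the same plate name, to ask whether vitrification changed these genes. Each group fills plate rows of its own, so a row and a group cannot be told apart, and at 1 h and 8 h the number series differs too. At 0 h none of the 76 members was called at an adjusted p of 0.05 (quasi-likelihood test of edgeR, with p-values adjusted after Benjamini and Hochberg over all genes, as in each comparison here), against 0.967% of all genes tested. Of the members, 8 had an unadjusted p under 0.05. DESeq2 called 2 of 71 with an adjusted p higher and none lower, against 1.58% and 1.11% of all genes. Limma on log2 TPM called 8 lower (10.5%) and none higher, against 12.7% and 0.353% of all genes. The median difference was 0.09 on the log2 scale, and the 95% interval lay within 1 log2 unit either way for 74 of the 76. At 1 h none was called, against 0.555% of all genes, with 4 members at an unadjusted p under 0.05 and a median of 0.15. At 4 h none was called, against 0.118% of all genes, with 3 members at an unadjusted p under 0.05 and a median of 0.02. DESeq2 and limma also called none at 1 h and at 4 h. The intervals lay within 1 log2 unit for 60 members at 1 h and 64 at 4 h. Differences that lie within a member's interval could not be told from none.

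At 8 h a single member, Ndufa4l2, was called higher in vitrified follicles, against 2.06% of all genes called in either direction. Ndufa4l2 encodes a relative of Ndufa4 known to be induced by low oxygen. Its TMM-scaled CPM was 3.02, 1.42, 1.47 and 0.552 in the fresh follicles and 3.73, 3.02 and 14.8 in the vitrified ones. The lowest vitrified value equals the highest fresh value and the difference was carried by vitrified replicate 3. The log2 difference was 2.15 ± 0.59 (SE), with an adjusted p of 0.0296 by edgeR. Without that replicate it was 1.03, with an adjusted p of 0.803. The call was also lost without fresh 8 h replicate 2, 3 or 4, with adjusted p of 0.0901, 0.0628 and 0.144. It was kept by DESeq2, with an adjusted p of 0.00837, and lost by limma on log2 TPM, with an adjusted p of 0.153. The other 75 members were not called at 8 h, and without vitrified replicate 3 none was, against 0.0162% of all genes higher and 0.332% lower. Of the 76, 4 had an unadjusted p under 0.05 and 54 had an interval within 1 log2 unit.

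The next comparison was between 1 h and 4 h of maturation, made in fresh and in vitrified follicles of the shared plate with no library in common. Most of complex I and the large subunits of complex II fell, while 2 of 10 members of complex IV were called in fresh follicles, one in each direction. In fresh follicles 36 members were lower at 4 h and 4 higher, against 24.5% of all genes lower and 21.9% higher. In vitrified follicles 41 were lower and 2 higher, against 25.9% lower and 20.6% higher. The median log2 change of the members was -0.51 in fresh and -0.65 in vitrified follicles, where that of all genes tested was -0.03 and -0.11. Of the members called lower, 34 were called in both states, 94.4% of the fresh list and 82.9% of the vitrified list; over all genes tested these shares were 81.4% and 77.1%. In 24 members (31.6%) every fresh 4 h library lay below every fresh 1 h library, and in 2 (2.63%) every one lay above, against 12% and 10.4% of all genes tested. In vitrified follicles these counts were 30 (39.5%) and 2, against 13.2% and 10.5% of all genes. Without vitrified 4 h replicate 2, each of the 29 calls named for that group kept its direction and its call. Of 9 granulosa markers tested, 6 fell in fresh and 7 in vitrified follicles in the same step and none rose. Of 11 theca and stroma markers 4 fell in fresh and 2 in vitrified follicles and none rose, and their summed level had a median of 7989 CPM at 1 h and 3590 at 4 h in fresh follicles and of 5592 and 5169 in vitrified ones. Of 4 endothelial markers tested 3 fell in fresh and none in vitrified follicles, with medians of the summed level of 61.5 and 8.66 CPM in fresh follicles and 13.6 and 6.22 in vitrified ones. The part of these cell types in the result was not tested. Members with no near-identical copy found gave 28 lower and 1 higher of 46 in fresh follicles, and those with one gave 8 lower and 3 higher of 30. The 46 include Ndufb4c, which was not searched and is itself a near-identical copy of Ndufb4.

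**Figure D2:**
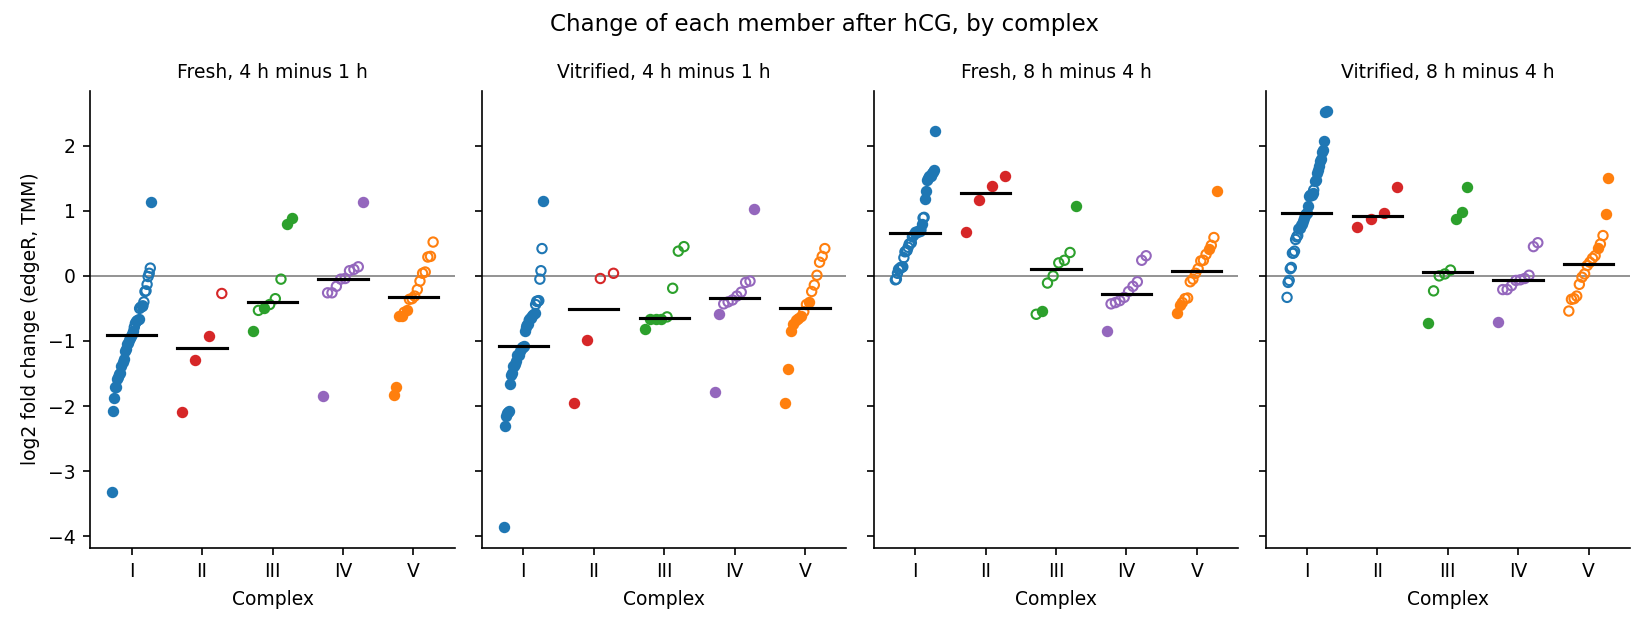
Log2 fold change of each member (vertical axis) by complex in the steps from 1 h to 4 h and from 4 h to 8 h, for fresh and vitrified follicles. Filled points passed an adjusted p of 0.05 and bars mark the median of a complex, which was -0.92 for complex I and -0.04 for complex IV in fresh follicles from 1 h to 4 h.

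The 4 genes of complex II are given in full. Sdha encodes the flavoprotein that oxidises succinate, Sdhb the iron-sulfur subunit, and Sdhc and Sdhd the membrane anchors that bind coenzyme Q. The 150 bases before the annotated start of 3 of them, with those of 1 complex I member that fell and 1 complex IV member that rose, are shown so that the letters before the start of genes described next can be compared; Sdhc has no entry among the promoters used. They are from the GRCm38.p6 build as RefSeq annotates it, written on the strand of the gene, with matches to the NRF1 motif GCGCANGCG or the ETS motif CCGGAAG in capitals; both strands were searched, so CTTCCGG marks an ETS match on the other strand.
Sdha, chr13:74350281-74350430, minus strand: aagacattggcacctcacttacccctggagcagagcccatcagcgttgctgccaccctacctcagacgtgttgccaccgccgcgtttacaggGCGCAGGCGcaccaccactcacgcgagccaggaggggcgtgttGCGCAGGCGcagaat
Sdhb, chr4:140961053-140961202, plus strand: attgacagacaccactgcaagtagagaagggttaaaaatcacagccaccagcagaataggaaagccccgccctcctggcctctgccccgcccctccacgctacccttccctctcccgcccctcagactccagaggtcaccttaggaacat
Sdhd, chr9:50603850-50603999, minus strand: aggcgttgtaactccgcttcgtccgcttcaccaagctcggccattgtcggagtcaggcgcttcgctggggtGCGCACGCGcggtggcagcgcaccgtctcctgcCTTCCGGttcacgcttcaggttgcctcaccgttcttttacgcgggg
Ndufv2, chr17:66101560-66101709, minus strand: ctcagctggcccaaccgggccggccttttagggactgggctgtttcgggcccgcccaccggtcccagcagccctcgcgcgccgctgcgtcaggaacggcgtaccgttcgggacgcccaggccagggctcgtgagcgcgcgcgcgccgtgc
Cox5a, chr9:57521082-57521231, plus strand: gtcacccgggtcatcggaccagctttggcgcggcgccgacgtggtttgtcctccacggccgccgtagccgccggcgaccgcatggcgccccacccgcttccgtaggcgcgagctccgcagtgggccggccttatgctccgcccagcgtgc

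The Sdha sequence holds 2 NRF1 matches and that of Sdhd holds an NRF1 and an ETS match, while those of Sdhb, Ndufv2 and Cox5a hold neither within these 150 bases. Sdha fell and Cox5a rose between 1 h and 4 h, and Sdhd passed the test in neither state. In the 250 bases before the start, 14 of the 65 members with a RefSeq promoter held the NRF1 motif (21.5%), against 5.86% of 27025 gene promoters of the same length and 13.4% of the 8339 promoters of genes tested here. The ETS motif was held by 12 members (18.5%), against 7.83% and 16.2%, and the YY1 motif AAGATGGC by 1 (1.54%), against 1.83% and 2.53%. Of the 21 members tested with an NRF1 or ETS match, 7 were lower at 4 h than at 1 h in fresh follicles and none higher, with a median of -0.36. Of the 42 with neither, 21 were lower and 2 higher, with a median of -0.67. These matches are descriptions of letters and not of bound sites.

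Sdha (GRCm38 chromosome 13, 74322254 to 74350280) was at 109, 105, 101, 97.7, 121 and 96.8 TMM-scaled CPM in the 6 fresh follicles at 1 h. At 4 h the 7 fresh follicles had 27.2, 18.6, 31.9, 24.5, 28.2, 21.8 and 21.1. All 4 h libraries lay below all 1 h libraries by a wide margin. The log2 change was -2.09 ± 0.18 (SE, adjusted p by edgeR 1.31e-17). In vitrified follicles the values were 94.1, 117, 123, 122 and 76.2 at 1 h and 29.2, 31.6, 23.8, 21.8, 26.7, 32.7 and 27.1 at 4 h, again with no overlap, and the change was -1.95 ± 0.18 (adjusted p by edgeR 9.01e-16). Sdhb went from 38.3 to 53.3 at 1 h to 9.61 to 24.3 at 4 h in fresh follicles, also without overlap. Its change was -1.30 ± 0.18 in fresh and -0.98 ± 0.19 in vitrified follicles, with adjusted p of 6.61e-09 and 8.36e-06 by edgeR. The anchors differed from these. Sdhc fell in fresh follicles by 0.93 on the log2 scale (adjusted p 0.000599 by edgeR) and had a log2 difference of -0.04 in vitrified ones (adjusted p 0.923). Sdhd had differences of -0.27 and 0.04, with adjusted p of 0.438 and 0.932.

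In complex I, 25 of 38 members tested fell and 1 rose in fresh follicles, with a median log2 change of -0.92. In vitrified follicles 26 fell and 1 rose, with a median of -1.08. These counts compare with 24.5% of all genes lower and 21.9% higher in fresh follicles, and 25.9% and 20.6% in vitrified ones. The member that rose in each state was Ndufa4, which is placed here by its name and whose protein belongs to complex IV. Its relative Ndufa4l2, among the members that fell, is likewise placed here by its name alone. Ndufs3, a subunit of the arm that reaches into the matrix, was at 39.5, 68.6, 44.7, 42.4, 49.5 and 41.1 CPM in fresh follicles at 1 h and at 8.56, 12.9, 11.1, 11.4, 8.75, 17.9 and 8.98 at 4 h. No 4 h follicle reached the lowest 1 h follicle, and the change was -2.07 ± 0.18 (adjusted p by edgeR 9.64e-17). In vitrified follicles Ndufs3 fell by 2.11 on the log2 scale. Ndufs3 has 1 near-identical copy (Gm12251), so its level is uncertain. Ndufv2, which carries an iron-sulfur cluster beside the flavin site, went from 33.2, 41.7, 39.7, 30.1, 22.5 and 24.1 at 1 h to 13.6, 14.4, 1.95, 11.4, 6.81, 9.61 and 9.51 at 4 h in fresh follicles. These groups did not overlap either, and the change was -1.70 ± 0.20 (adjusted p 1.08e-11). Ndufa10, an accessory subunit of the membrane arm, fell by 1.87 in fresh and by 2.15 in vitrified follicles.

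The largest log2 change among the members was that of Ndufa4l2, at -3.32 ± 0.51 in fresh and -3.86 ± 0.51 in vitrified follicles (adjusted p by edgeR 4.57e-08 and 1e-09). Its level was 9.92 to 26.4 CPM in fresh follicles at 1 h and 0 to 3.84 at 4 h, with 1 library at 0. Ndufa4 moved the other way. It was at 8.31, 7.44, 4.67, 10.9, 2.46 and 3.51 CPM in fresh follicles at 1 h and at 12.6, 10.6, 13, 12.5, 23.3, 9.61 and 12.2 at 4 h. A few libraries overlapped, and the change was 1.14 ± 0.28 in fresh and 1.15 ± 0.27 in vitrified follicles (adjusted p 0.000357 and 0.000301 by edgeR). Ndufa4 has 2 near-identical copies (Gm14450 and Gm14630), so its level is uncertain.

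Complex III gave calls in both directions in fresh follicles, where 2 of its 8 members fell and 2 rose. That is near the share of all genes tested, 24.5% lower and 21.9% higher. In vitrified follicles 4 fell and none rose, against 25.9% and 20.6% of all genes. Uqcrc1 and Uqcrc2, the large core proteins, fell by 0.85 and 0.50 in fresh follicles and by 0.67 each in vitrified ones. Uqcrq and Uqcrb, small accessory subunits, rose in fresh follicles by 0.80 ± 0.17 and 0.89 ± 0.26. In vitrified follicles their changes were 0.38 and 0.45, with adjusted p of 0.0681 and 0.16. Uqcrb has 4 near-identical copies. Uqcrfs1 had a difference of -0.05 in fresh and -0.19 in vitrified follicles, and passed the test in neither.

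Complex IV had the smallest share of members called among the complexes in both states. In fresh follicles 1 of 10 members was lower and 1 higher, against 24.5% and 21.9% of all genes. In vitrified ones 2 were lower and 1 higher, against 25.9% and 20.6%, so the lower count there is near the share of all genes. Cox5a, a subunit that faces the matrix, was at 41.5, 38.4, 43.9, 40.3, 34 and 30.1 CPM in fresh follicles at 1 h and at 82, 94.5, 87.8, 74.6, 84.6, 88.4 and 70.3 at 4 h. Every 4 h follicle was above every 1 h follicle. Cox5a rose by 1.13 ± 0.19 in fresh and 1.03 ± 0.20 in vitrified follicles (adjusted p by edgeR 6.91e-07 and 1.24e-05). It has 1 near-identical copy (Gm11633), and 12.8% of its exonic bases overlap Gm26631 on the other strand. Cox7a2l, a factor that joins complexes III and IV into supercomplexes, fell. Its level was 191, 218, 210, 142, 187 and 191 in fresh follicles at 1 h and 73, 61.9, 45.5, 59.4, 48.6, 37.8 and 45.5 at 4 h. The groups did not overlap, and the change was -1.84 ± 0.19 in fresh and -1.79 ± 0.20 in vitrified follicles.

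In complex V, 5 of 16 members fell in fresh and 7 in vitrified follicles, and none rose. Over all genes tested 24.5% fell and 21.9% rose in fresh follicles, and 25.9% and 20.6% in vitrified ones. Atp5c1, the central stalk of the rotor, was at 237, 310, 295, 253, 237 and 222 CPM in fresh follicles at 1 h and at 83, 116, 42.3, 87.1, 71.5, 50 and 58.7 at 4 h. The groups did not overlap, and Atp5c1 fell by 1.83 in fresh and by 1.96 in vitrified follicles. Atp5c1 has 1 near-identical copy (Atp5c1-ps), so its level is uncertain. Atp5a1, the alpha subunit, fell by 0.61 and 0.84. Atp5b, its catalytic partner and the most abundant member, was at 2436 to 2716 CPM at 1 h and 2275 to 3112 at 4 h in fresh follicles. Its changes were 0.06 ± 0.11 in fresh and -0.14 ± 0.12 in vitrified follicles, and passed the test in neither.

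**Figure D3:**
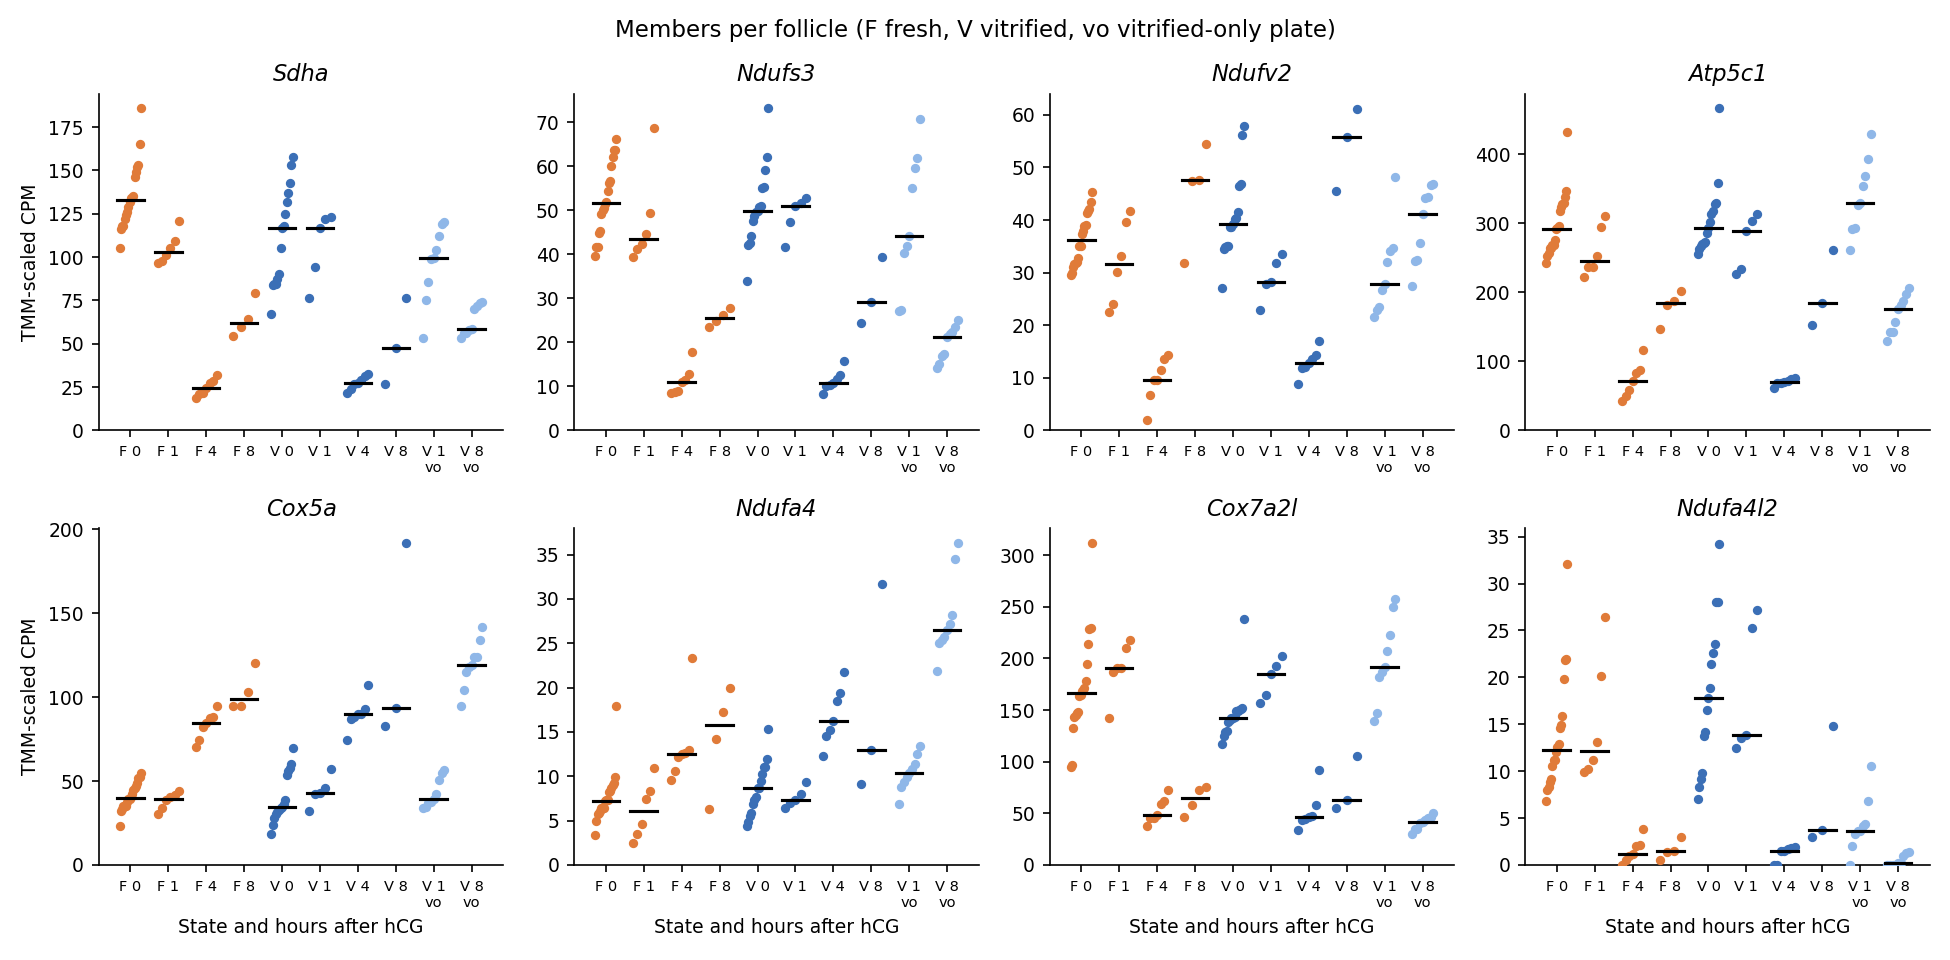
TMM-scaled CPM in every library (vertical axis, linear from 0) of Sdha, Ndufs3, Ndufv2, Atp5c1, Cox5a, Ndufa4, Cox7a2l and Ndufa4l2 by group, with bars at the medians. Sdha at 4 h lies between 18.6 and 31.9 CPM in fresh follicles, below every 1 h follicle, and Cox5a at 4 h lies between 70.3 and 94.5, above every one.

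From 4 h to 8 h, 14 of 38 complex I members and all 4 of complex II rose in fresh follicles, and none of these fell. In fresh follicles 21 members were higher at 8 h and 4 lower, against 20.8% of all genes higher and 15.7% lower. In vitrified follicles 33 were higher and 2 lower, against 22% higher and 15% lower. Without vitrified 8 h replicate 3 the counts were 21 higher and 7 lower, against 18.2% and 11.6% of all genes, and the median was 0.33. With all libraries the median log2 change of the members was 0.36 in fresh and 0.61 in vitrified follicles, and that of all genes 0.12 and 0.17. All 21 members called higher in fresh follicles were also called in vitrified ones, where they made up 63.6% of the list; over all genes tested the shared calls were 72.8% of the fresh and 68.8% of the vitrified list. Without vitrified 8 h replicate 3, 17 of the 21 were called in both. This step uses the same 4 h libraries as the step before it, so a high or low 4 h value enters both with opposite sign. Of the 9 granulosa markers, 3 rose and 4 fell in fresh follicles, and their part was not tested. With totals in place of TMM scaling, 56 members were higher and none lower in fresh follicles, and 51 and none in vitrified ones; that scaling moved the median of all genes to 0.75 and 0.73.

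All 4 complex II genes were higher at 8 h in fresh follicles, and in vitrified ones all 4 with replicate 3 and 2 without it. Sdha was at 54.4, 79.3, 64.1 and 59.7 CPM in the 4 fresh follicles, above every 4 h follicle and below every 1 h follicle. It rose by 1.38 ± 0.19 (adjusted p by edgeR 6.35e-09). In vitrified follicles Sdha was at 47.3, 76.6 and 27, which overlaps the 4 h range, and rose by 0.87 ± 0.21. Without replicate 3, the lowest of these, the rise was 1.23 ± 0.22. Sdhb reached 66.2, 53.5, 38.1 and 51.7 in fresh follicles and rose by 1.53 ± 0.20; in vitrified follicles it rose by 1.36 with replicate 3 and 0.94 without. Sdhc rose by 0.67 in fresh follicles (adjusted p 0.0318 by edgeR). In vitrified ones Sdhc had a change of 0.75 (adjusted p 0.0221), which without replicate 3 was 0.68 (adjusted p 0.0882). Sdhd, which had not passed the test in the first step, rose by 1.17 ± 0.29 to 61.7, 59.9, 54.3 and 54.3, above every fresh follicle of 1 h and 4 h. In vitrified follicles Sdhd had 35.7, 38.9 and 99.2, where the highest value is replicate 3. Its change there was 0.97 (adjusted p 0.00923 by edgeR) and without that replicate 0.39 (adjusted p 0.434).

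In complex I, 14 of 38 members rose and none fell in fresh follicles, with a median of 0.66, and 23 rose and none fell in vitrified ones, with a median of 0.96. All genes tested gave 20.8% higher and 15.7% lower in fresh follicles, and 22% and 15% in vitrified ones. Without vitrified replicate 3, 14 complex I members rose and none fell, with a median of 0.72, against 18.2% and 11.6% of all genes. Ndufv2 had the largest rise in fresh follicles, to 47.5, 54.4, 31.8 and 47.7 CPM, all above the highest 4 h follicle. Its change was 2.22 ± 0.21 in fresh and 2.07 ± 0.22 in vitrified follicles (adjusted p 9.51e-15 and 1.02e-12 by edgeR), and 2.03 in the latter without replicate 3. Ndufs3 rose to 23.5, 26.2, 24.9 and 27.8, which stayed below every 1 h follicle, by 1.18 ± 0.20. Ndufa8, a small accessory subunit, rose by 1.62 in fresh follicles. In vitrified follicles with all libraries the largest rises were those of Ndufa4l2, 2.53 ± 0.58, and Ndufa10, 2.52 ± 0.25. Their adjusted p by edgeR were 0.000288 and 4.66e-14, and their fresh changes were 0.13 (adjusted p 0.902) and 1.59. Ndufa4l2 was highest in vitrified replicate 3, as given above. Ndufs1, the largest core subunit, had changes of 0.39 and 0.62 and did not pass the test in either state; without vitrified replicate 3 the second was 1.11, with an adjusted p of 0.00269.

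Complexes III, IV and V gave few calls in this step in fresh follicles, where 20.8% of all genes rose and 15.7% fell. In complex III, Uqcrc1 rose by 1.08 in fresh and 1.36 in vitrified follicles, and Uqcrq fell by 0.54 and 0.73. In complex IV no member rose, and Cox7c, a small transmembrane subunit with 4 near-identical copies, fell by 0.84 and 0.71. Atp5c1 rose by 1.30 and 1.51, and Atp5a1 by 0.41 and 0.43. Without vitrified replicate 3 these calls in vitrified follicles stayed past the threshold, with changes of 1.18 for Uqcrc1, -1.04 for Uqcrq, -0.91 for Cox7c, 1.32 for Atp5c1 and 0.53 for Atp5a1. In that setting complex III had 2 members higher and 1 lower, complex IV 3 lower and complex V 3 higher and 3 lower. All genes tested then gave 18.2% higher and 11.6% lower. With all libraries, Uqcrc2, Uqcr10 and Atp5o also rose in vitrified follicles, by 0.87, 0.98 and 0.95. There 22% of all genes rose and 15% fell. Atp5d, the delta subunit of the rotor, fell by 0.57 in fresh follicles, and Atp5g3 by 0.45. The calls of Uqcrq, Atp5d and Atp5g3 in fresh follicles turned to positive changes of 0.10, 0.06 and 0.20 with totals in place of TMM scaling.

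As shares of the library total, the complex I members summed to 685 to 1014 CPM in fresh follicles at 1 h, 332 to 525 at 4 h and 1028 to 1421 at 8 h. The 3 ranges do not overlap, and the same holds in vitrified follicles of the shared plate, with 588 to 816, 328 to 539 and 1162 to 1587. Complex II gave 143 to 188, 45.2 to 86.8 and 221 to 289 in fresh follicles. Complex V gave 4384 to 5152, 3573 to 4659 and 5507 to 6537, where the 1 h and 4 h ranges overlap. On this scale the 8 h libraries lay above those of 1 h and 4 h in these 3 complexes of fresh follicles. With TMM scaling the ranges of 1 h and 8 h overlapped, at 841 to 1189 and 812 to 1056 CPM in complex I and at 181 to 220 and 175 to 215 in complex II, and the 4 h libraries lay below both. On that scale the summed complex V change from 4 h to 8 h was -0.02 in fresh follicles in place of 0.61.

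**Figure D4:**
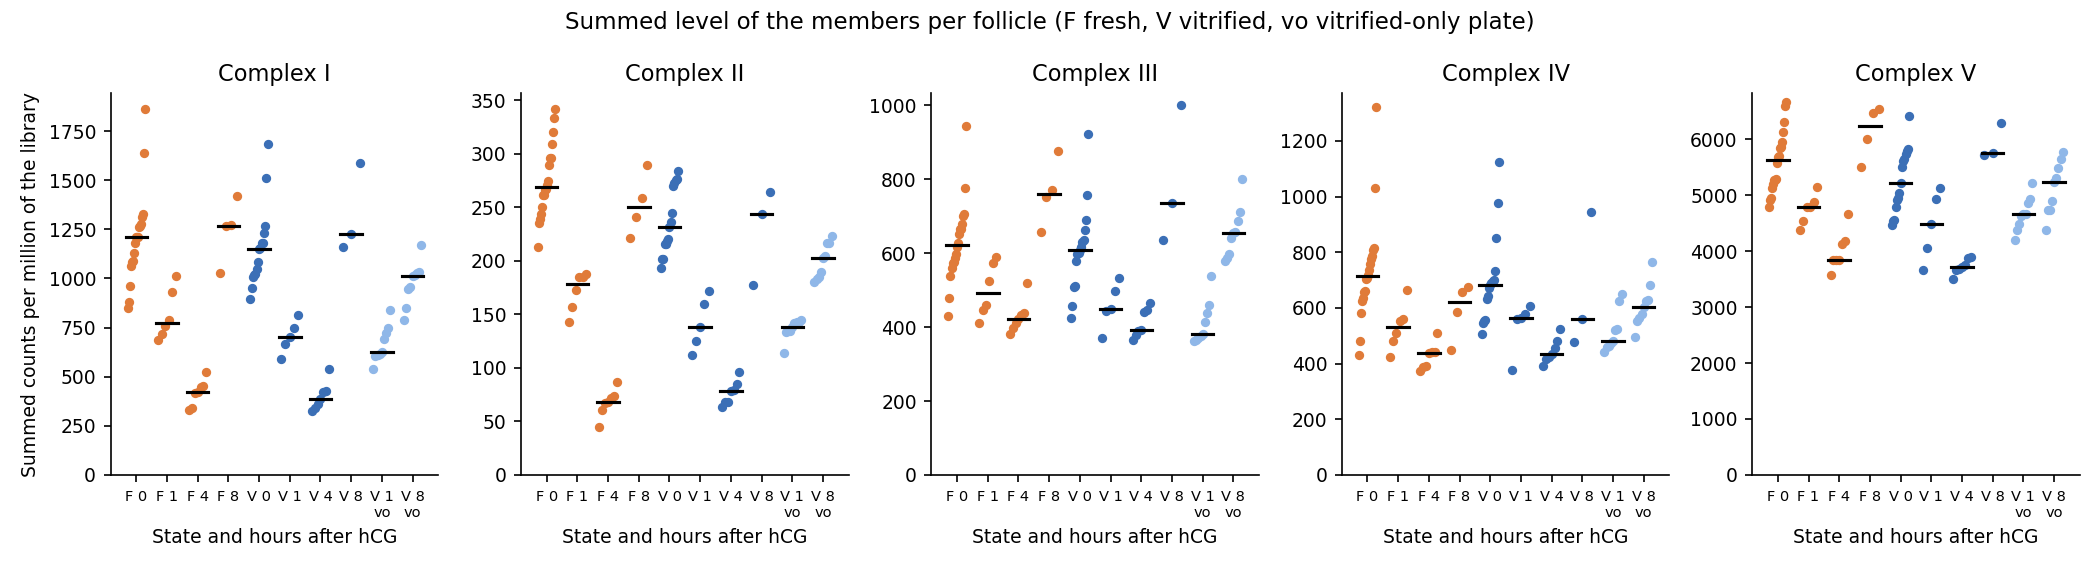
Summed level of the members of each complex in every library, in CPM of the library total on the vertical axis, by group, with bars at the medians. In complex I the fresh 4 h follicles lie between 332 and 525 CPM, below the 1 h and 8 h follicles.

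No member passed the test of a difference between fresh and vitrified follicles in these steps. The difference of the steps from 1 h to 4 h called none of the 76 members, against 0.0421% of all genes, and 2 had an unadjusted p under 0.05. That from 4 h to 8 h called none, against 0.993%, and 5 had an unadjusted p under 0.05; without vitrified replicate 3 it also called none, and 1 had. That from 0 h to 1 h called none, against 0.160%, and 3 had an unadjusted p under 0.05. DESeq2 and limma called none in each of these. The 95% interval of the difference lay within 1 log2 unit for 45 members in the step from 1 h to 4 h, so a difference of the size of many of these changes could not be told from none.

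A further comparison was 8 h against 1 h, in fresh follicles on the shared plate and in 9 against 9 vitrified follicles on the vitrified-only plate, which share no library. In fresh follicles 9 members were higher and 18 lower, against 26.2% of all genes higher and 23.5% lower. On the vitrified-only plate 8 were higher and 31 lower, against 32% and 27.4%. All 18 members lower in fresh follicles were also lower there, where they made up 58.1% of the list; over all genes tested these shares were 79.2% and 68%. The changes of the 76 members had a Pearson correlation of 0.892 between the 2 comparisons, as a description, against 0.843 over all genes tested. The median change was -0.19 in fresh follicles and -0.38 on the vitrified-only plate, with all genes at 0.05 and 0.11. With totals in place of TMM scaling the split was 30 higher and 5 lower in fresh follicles and 36 and 7 on the vitrified-only plate, with the median of all genes at 0.67 and 0.89. The direction of the members as a set between 1 h and 8 h thus depends on the scaling.

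**Figure D5:**
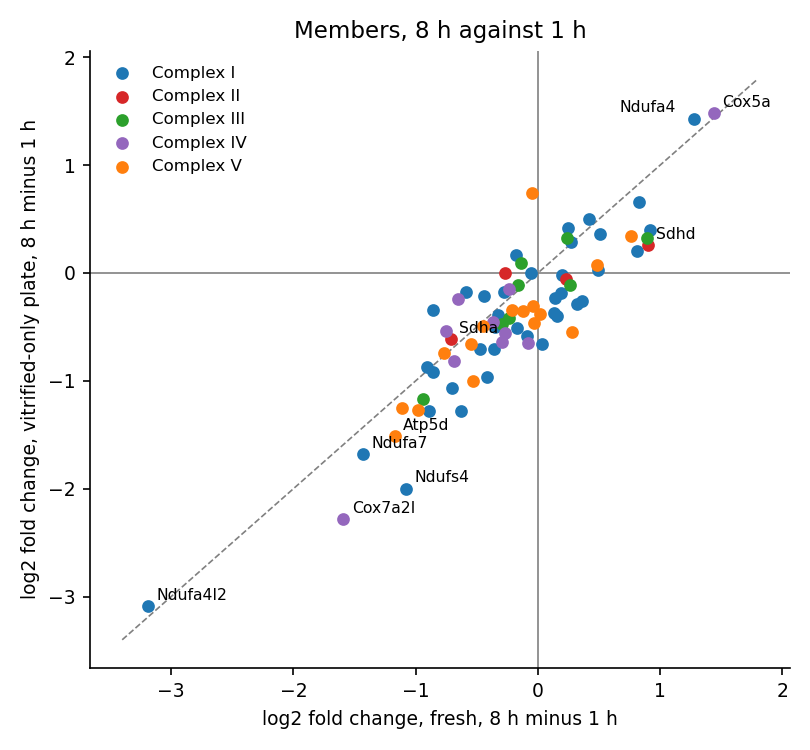
Log2 change from 1 h to 8 h of each member in fresh follicles of the shared plate (horizontal axis) and in vitrified follicles of the vitrified-only plate (vertical axis). The points follow the diagonal, and 60 of 76 have the same sign in both, as do 9652 of all 11889 genes tested.

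Among the members higher at 8 h, 5 were called in both sets, 55.6% of the fresh list and 62.5% of the vitrified-only list, against 78.9% and 64.6% over all genes tested. Of these Cox5a rose by 1.44 ± 0.21 and 1.48 ± 0.16 (adjusted p 1.98e-08 and 3.62e-13 by edgeR). Cox7a2l fell by 1.59 and 2.28, and Ndufa4l2 by 3.19 and 3.09, with Ndufa4 higher by 1.28 and 1.43. Atp5d and Atp5g3 also fell, by 1.17 and 0.98 in fresh follicles and by 1.51 and 1.27 on the vitrified-only plate. Sdha was below its 1 h level in both, by 0.71 ± 0.20 and 0.61 ± 0.14. With totals, the Sdha change on the vitrified-only plate was 0.19 in place of this.

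Between 0 h and 1 h, time and plate cannot be told apart, since all 0 h libraries were on a plate of their own. In fresh follicles 4 members were higher and 7 lower at 1 h, against 19% and 23.1% of all genes. In vitrified follicles 5 were higher and 6 lower, against 21.5% and 22%. Atp5d was at 99.8 to 227 CPM at 0 h, with a median of 157, and at 406, 533, 424, 452, 644 and 604 in fresh follicles at 1 h. It had the largest difference among the members called, 1.70 ± 0.12 in fresh and 1.75 ± 0.13 in vitrified follicles. Atp5b was higher by 0.59 and 0.76, Atp5g3 lower by 0.45 and 0.41, and Ndufv3, an accessory subunit of the NADH-binding module, lower by 1.10 and 1.43. With totals the split in fresh follicles was 1 higher and 53 lower, and in vitrified ones 1 and 55, with all genes at a median of -0.60 and -0.65.

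The plates could be compared within vitrified follicles. At 1 h 1 member differed, Ndufa4l2, lower by 2.08 on the vitrified-only plate, against 1.37% of all genes called. At 8 h 14 members were lower on the vitrified-only plate and none higher, against 13.1% of all genes lower and 10.3% higher, and without replicate 3 of the shared plate 2 were lower and 2 higher, against 5.21% and 4.33%. Ndufa4l2 had the largest of these differences, at -3.84, and -2.72 without that replicate. At 8 h the summed level of 6 immune markers was 37.4 to 39.2 CPM on the shared plate. On the vitrified-only plate it was 0.52 to 38.4, with a median of 1.55. The ranges of the 2 plates overlapped in this and in the other marker lists, and the part of these cells was not tested.

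Cox4i1 and Cox4i2 are alternative forms of the subunit that tunes complex IV to oxygen. Cox4i1 was at 404 to 474 CPM in fresh follicles at 1 h and 423 to 580 at 4 h, and its change of 0.12 did not pass the test (adjusted p 0.578 by edgeR). Cox4i2 was at 39 to 68.3 CPM at 1 h and at 1.51, 0.759, 0.65, 1.09, 0, 0.64 and 0.529 at 4 h, with no overlap. The change was -6.17 ± 0.51 in fresh and -4.81 ± 0.44 in vitrified follicles, larger in size than that of any member. At 8 h Cox4i2 was at 1.47 to 3.87 CPM in fresh follicles at 3.94, 6.22 and 10.2 in vitrified follicles of the shared plate, and at 0 to 1.3 on the vitrified-only plate. The 3 vitrified follicles of the shared plate lay above all 4 fresh ones, with a log2 difference of 1.48 ± 0.54 that did not pass the test (adjusted p 0.162 by edgeR). Of the 3 genes for the ring subunit of complex V, Atp5g1 passed the test in neither state between 1 h and 4 h, Atp5g2 fell by 1.70 and 1.43, and Atp5g3 fell by 0.53 and 0.61. Cox7a2 had differences of 0.14 and -0.31 beside the fall of Cox7a2l, and Cox6a1, Cox6b1, Cox7b and Cox8a passed the test in neither state. Ndufab1, the acyl carrier protein of complex I, fell by 1.38 and 1.02 between 1 h and 4 h and rose by 1.33 and 1.50 between 4 h and 8 h, the latter by 1.29 without vitrified replicate 3. Atp5g1, Atp5g2, Cox6a1, Cox7b and Ndufab1 have near-identical copies, so their levels are uncertain.

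Other genes of the pathway did not share one direction. Of all genes tested, 24.5% fell and 21.9% rose between 1 h and 4 h in fresh follicles, and 25.9% and 20.6% in vitrified ones. Between 1 h and 4 h, 1 of 12 complex I assembly factors tested rose and 1 fell in fresh follicles, and 3 of 17 complex IV assembly factors rose and 2 fell. Of 22 genes of pyruvate dehydrogenase and the citric acid cycle, 11 fell and 2 rose in each state. Pdk2 and Pdk1, kinases that switch pyruvate dehydrogenase off, fell by 2.99 and 2.93 in fresh follicles, and Pdk1 fell by 2.88 in vitrified ones, while Idh3a, the catalytic subunit of isocitrate dehydrogenase, rose by 1.29 and 1.09. Among 11 electron carrier and coenzyme Q genes, 5 fell and 1 rose in fresh follicles. Coq8a, an atypical kinase of coenzyme Q synthesis, fell in both states, from 1.56 to 2.89 CPM in fresh and 0.812 to 5.25 in vitrified follicles at 1 h to 0 in every library of 4 h. Coq10b, a coenzyme Q binding protein, fell by 3.01 in fresh follicles and Cycs, cytochrome c, rose by 0.73. Vdac3, a channel of the outer membrane, fell by 1.57 in fresh and by 1.89 in vitrified follicles.

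Of 11 regulators of mitochondrial gene expression tested, 6 rose and none fell in fresh follicles between 1 h and 4 h. In vitrified follicles 5 rose and none fell. All genes tested gave 21.9% higher and 24.5% lower in fresh follicles in this step, and 20.6% and 25.9% in vitrified ones. Nrf1, a transcription factor for many nuclear genes of mitochondria, rose by 2.0 ± 0.33 and 2.24 ± 0.33, and Tfam, which packages mitochondrial DNA, rose by 1.68 in fresh follicles. Of 78 mitochondrial ribosomal proteins, 26 rose and 9 fell in fresh follicles. Between 4 h and 8 h, 43 of these 78 rose and 1 fell in fresh follicles and 40 rose and none fell in vitrified ones. In the same step of fresh follicles, 6 of 12 complex I assembly factors rose, as did 11 of 22 genes of the citric acid cycle list, with none lower in either, and 61 of 85 cytosolic ribosomal proteins fell and none rose. These counts carry no test of the lists. From 4 h to 8 h, all genes tested gave 20.8% higher and 15.7% lower in fresh follicles, and 22% and 15% in vitrified ones.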

How the data were processed

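RNA of single follicles was turned into cDNA by Smart-Seq2 and into libraries by Nextera XT, per the labels' protocols, which keeps no strand. Per the submitters' processing notes, the tools were Partek, Bowtie2, HISAT2 and DESeq2 and the build was mm10; neither versions nor roles are listed. The authors deposited a table of estimated counts, which are not whole numbers, and a table of log2(TPM + 1) values, each for all 83 libraries. The sources used here do not say how reads that match several genes were shared, and paralogs and pseudogenes can share reads.

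Counts were rounded, filtered (filterByExpr, min.count 10) and TMM-scaled, and fitted with edgeR 4.0.16's quasi-likelihood test (robust) in R 4.3.3. Each of the 10 sets of group and plate had its own mean, so 17 comparisons shared one estimate of the spread. P-values were adjusted by Benjamini-Hochberg over the 11889 genes tested, at 0.05. The standard error and 95% interval (1.96 SE) are from the same fit. TMM-scaled CPM are counts divided by the scaled library total. The script was tested on simulated data. Near-identical copies were found with blastn 2.17.0 (90% identity over 90% of the coding length) for members with an annotated coding transcript. Gene positions are from GENCODE vM21 and promoters from RefSeq, both on GRCm38. All 80 members matched by symbol or, for Atp5md (Usmg5) and Atp5pb (Atp5f1), by a synonym. The log2 values deposited by the authors gave the TPM levels. Promoter sequence was available to the search for 65 members.

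Replicate numbers follow accession order and name libraries only. Named members were drawn from the 3 with the largest change in each direction and complex among those called, the isoform groups, the Sdh genes and the 2 most abundant members of each complex. Not every member that qualified is given for every comparison. For other lists names were taken from the 2 largest in each direction. Further members given with values, such as Ndufs1, Ndufv3, Ndufa8 and Uqcrfs1, were chosen after their values were seen where they fall outside this rule. The members and lists were chosen with earlier results of these data known. Alternatives were DESeq2 1.42.0, its size factors, totals without TMM, no filter, limma 3.58.1 on log2 TPM, other plate terms and leaving out libraries. That without vitrified 4 h replicate 2 was chosen after seeing the data. One result is not reported here.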

Additional observations from a re-analysis of the deposited data

Results flagged for a closer look

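In 168 sets of 4 to 10 libraries, 10 had a highest or lowest library whose gap to its neighbour was above Dixon's critical value; chance flags about 1 in 20 sets. Ndufs3 was at 68.6 TMM-scaled CPM in fresh 1 h replicate 2, next to 49.5. Ndufa4 was at 23.3 in fresh 4 h replicate 5, next to 13. Cox7a2l was at 91.7 in vitrified 4 h replicate 5, next to 57.6. Ndufv3 was low, at 2.17, in vitrified 1 h replicate 3 of the shared plate, next to 7.34. On the vitrified-only plate, Cox7c was at 76.4 in 1 h replicate 10, next to 49.5, and in 8 h replicate 4 Uqcrq was at 121, next to 88.7, and Atp5g2 at 11.5, next to 5.8. For summed CPM of the library total, complex III was at 520 in fresh 4 h replicate 2, next to 439. Complex IV was low, at 376, in vitrified 1 h replicate 4 of the shared plate, next to 560. Complex II was low, at 114, in vitrified 1 h replicate 9 of the vitrified-only plate, next to 134. None of the 3 tests of a difference between fresh and vitrified steps called a member.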

How the results depend on the processing

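No paired analysis was possible because the replicate numbers follow accession order and pair no libraries. The calls from 1 h to 4 h in fresh follicles stayed at 34 to 36 members lower under DESeq2's size factors, totals, no filter, DESeq2 and limma, while steps that involve 0 h or 8 h moved with the scaling. The values below are numbers of members called where they moved by over 1.5 times. With totals, vitrified against fresh gave 1 lower at 0 h and 0 higher at 8 h, the step from 0 h to 1 h gave 1 higher and 53 lower in fresh and 1 and 55 in vitrified follicles, 4 h to 8 h gave 56 and 0 in fresh and 51 and 0 in vitrified follicles, 1 h to 8 h gave 30 and 5 in fresh and 36 and 7 in vitrified-only follicles, and 1 h to 4 h gave 4 higher in vitrified ones. With limma, vitrified against fresh gave 8 lower at 0 h and 0 higher at 8 h, 0 h to 1 h gave 2 higher and 14 lower in fresh and 2 higher in vitrified follicles, 4 h to 8 h gave 56 and 0 in fresh and 0 lower in vitrified follicles, 1 h to 8 h gave 32 and 3 in fresh and 54 and 5 in vitrified-only follicles, 1 h to 4 h gave 4 and 25 in vitrified ones, and the plates at 8 h gave 1 higher. With DESeq2, 2 were higher at 0 h, 11 lower in fresh and 2 higher in vitrified follicles from 0 h to 1 h, and 2 and 1 higher between plates at 1 h and 8 h. With its size factors 2 were higher from 0 h to 1 h in vitrified follicles. With no filter 0 were higher at 8 h, 3 and 1 lower from 0 h to 1 h, and 1 and 1 lower from 4 h to 8 h in fresh and vitrified follicles. With 1 common plate term 0 were higher at 8 h and 3 lower from 0 h to 1 h in vitrified follicles, and with no plate term 0 were higher at 8 h and 8 higher from 0 h to 1 h in vitrified follicles. Leaving out 1 library at a time, members higher from 4 h to 8 h numbered 18 to 23 in fresh follicles (2 to 7 lower) and 21 to 37 in vitrified ones (0 to 7 lower), higher from 1 h to 8 h in fresh follicles 5 to 9, from 0 h to 1 h in vitrified follicles 2 to 6 higher and 2 to 6 lower, between plates at 8 h 0 to 2 higher and 2 to 21 lower, and vitrified against fresh at 8 h 0 to 1 higher. Changes of sign with totals were Uqcrc1 at 0 h to 1 h (-0.12), Uqcrq (0.10), Atp5d (0.06) and Atp5g3 (0.20) at 4 h to 8 h, Cox6b1 (-0.12), Cox6a1 (-0.24) and Atp5a1 (-0.37) at 0 h to 1 h in vitrified follicles, and Sdha (0.19) and Cox5b (0.15) at 1 h to 8 h on the vitrified-only plate. With limma they were Uqcrq (0.22), Atp5d (0.22), Atp5g3 (0.33), Sdha (0.03) and Cox6a1 (0.04) in fresh follicles and Sdha (0.43), Cox6a1 (0.24) and Cox5b (0.43) on the vitrified-only plate. Summed levels moved to 0.11 and 0.23 from 4 h to 8 h with TMM scaling in fresh and vitrified follicles, and to -0.47 with TMM scaling and -0.15 in TPM from 1 h to 4 h in vitrified ones. Complex III turned to 0.07 and 0.17 in TPM from 1 h to 4 h, and complex IV to -0.17 and -0.08 and complex V to -0.02 with TMM scaling from 4 h to 8 h. The cause was not tested.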
